A study of Danio rerio with 8 samples.

Results

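The cytosolic ribosomal protein genes are the 85 of 32520 genes in the counts table whose symbol begins with rpl or rps and a number, or with rplp, together with fau, and without the S6 kinase genes. By name, 42 encode proteins of the large (60S) subunit, 4 encode proteins of its P stalk, 37 encode proteins of the small (40S) subunit, and 2, RPL7L1 and rps19bp1, are not known as subunits of the ribosome. No row carried the symbol rpsa; a row named RPSA2 lies outside the rule and is given separately.

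The cytosolic ribosome reads messenger RNA in its small subunit and joins amino acids in its large subunit, and the P stalk of the large subunit recruits the elongation factors. Cells make the ribosomal proteins in near equal numbers, and vertebrate ribosomal protein mRNAs begin with a terminal oligopyrimidine (TOP) stretch, through which mTOR signalling controls their translation. In heart muscle, ribosome production is known to rise when cardiomyocytes grow.

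The libraries were made from ventricles of adult zebrafish of the first (F1) generation, all with uninjured mothers. In 4 libraries the fathers had received a cryoinjury, in which part of the ventricle is frozen, and were mated 7 days later (injured 1, 2, 4 and 7, after the numbers in the labels). In 4 libraries the fathers were uninjured (uninjured 1, 3, 4 and 5). The offspring themselves were not injured, and each library pooled 4 siblings. The labels give no strain, age or sex, and do not say whether pools had separate fathers; the p-values therefore reflect variation among pools. Atrium and bulbus arteriosus had been removed and the ventricle opened to release red blood cells.

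The injured-father libraries held 8441014 to 16290169 counted reads and the uninjured-father libraries 12450251 to 14736121. Cardiomyocyte markers fitted the label, with 5 of 11 listed genes matched and a summed level of 44426 to 57157 CPM (counts scaled to a library total of 1e+06) with injured fathers and 49035 to 53525 CPM with uninjured fathers. The mitochondrial share was 21.8% ± 2.08 in injured-father libraries and 21.3% ± 1.23 in uninjured-father libraries (SD, n = 4 each). Haemoglobin genes took 0.173%, 0.171%, 0.360% and 0.155% in injured 1, 2, 4 and 7, against 0.0900%, 0.171%, 0.101% and 0.0905% in uninjured 1, 3, 4 and 5. Reads were amplified and carried no molecular identifiers, so a count is not an independent molecule.

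The ribosomal protein genes were among the most abundant transcripts of the ventricle. They took 4.68% of all counts on average over the 8 libraries. Of the 85, 82 had enough counts to be tested and 3 did not. Levels can be compared between genes only per length, as CPM per kilobase of the deposited gene length, which sums all annotated exons. On that scale the tested members ranged from 8.47 to 1551 with a median of 384 CPM per kilobase, against a median of 2.91 over all 13604 tested genes. Each of the 82 lay above that median, and 20 of the 100 highest genes were members. Per gene, without length, 66 members averaged 100 to 1000 CPM, 11 at least 1000 CPM and 5 under 100 CPM. The 10 members with the most counts held 27.5% of the members' counts.

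The highest level per length was that of RPS7, a 40S protein that binds the p53 regulator MDM2 in mammals (ENSDARG00000042566, GRCz11 chromosome 20, 30372352 to 30377221), at 1551 CPM per kilobase. The stalk gene rplp2 followed at 1355 CPM per kilobase, then RPL6 at 1300, RPS14 at 1282 and RPL11 at 1140. The lowest tested were rps19bp1, whose human counterpart is a nucleolar protein that binds RPS19 (8.47 CPM per kilobase), and RPL7L1, whose human counterpart is a nucleolar factor of 60S assembly (10.3). The copies rps27l (29.8 CPM per kilobase) and RPL22L1 (62.4) were also among the 5 lowest. These values depend on the annotated length, which was 412 bases for rplp2 and 4959 bases for RPS9.

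**Figure D1:**
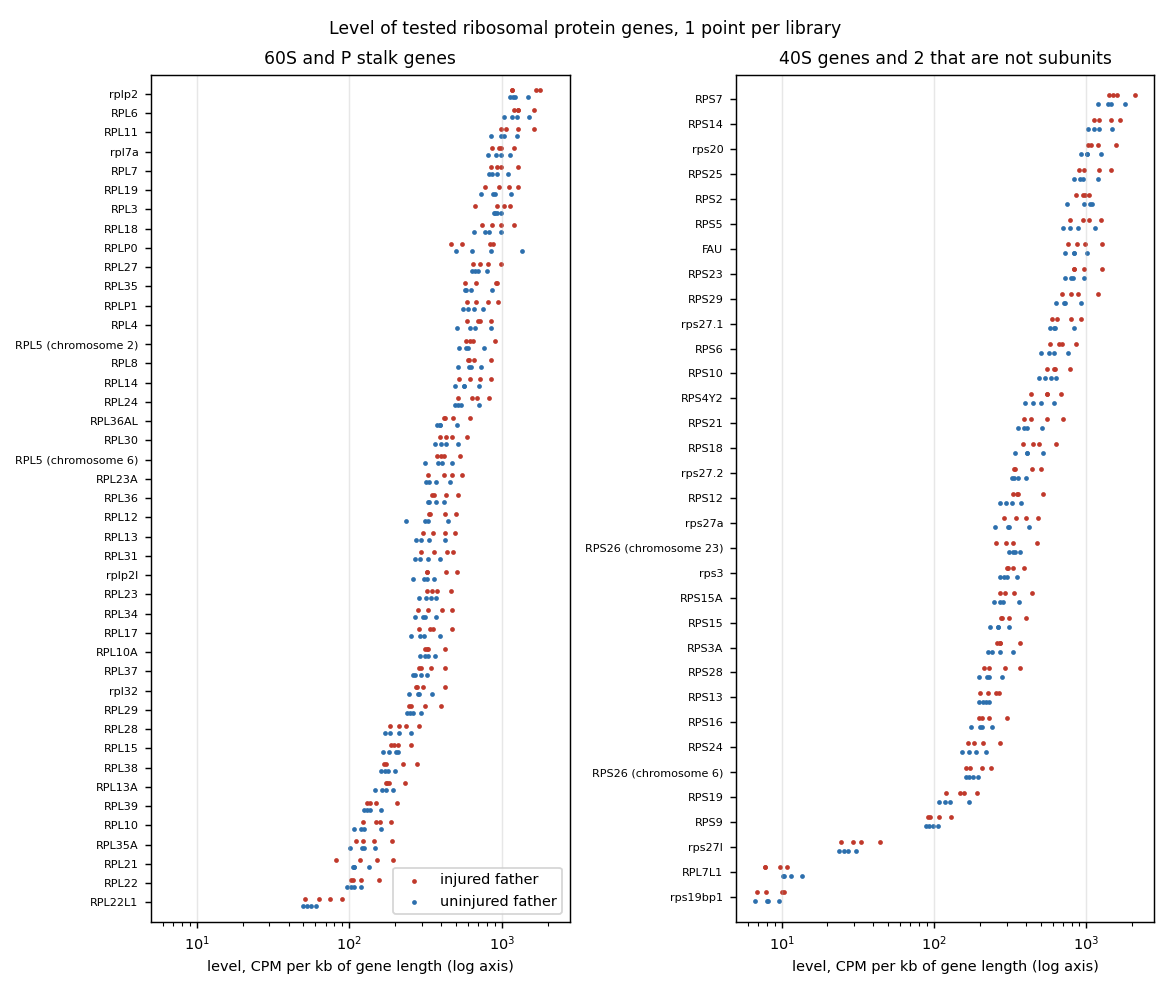
Level of 76 of the 82 tested ribosomal protein genes in CPM per kilobase of gene length on a log axis, with 1 point per library (injured fathers red, uninjured fathers blue) and genes in order of their mean. The means run from 8.47 (rps19bp1) to 1551 (RPS7), and the groups overlap in each gene drawn.

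Among the untested rows, RPL9 and RPL26, named after core subunits, were at or near 0 counts. RPL9 (chromosome 1) had 1 count over the 8 libraries, in uninjured 3. RPL26 (chromosome 14) had 3 counts, 1 in injured 1 and 2 in injured 4. Reads that map to several places were not counted, so low rows of this family, which has many near-identical copies in vertebrate genomes, give no level for the protein; the part of such reads here was not tested.

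The main comparison asks whether injury of the father altered ribosomal protein gene expression in the unperturbed ventricle of the offspring. The members took 4.52%, 4.80%, 5.52% and 5.37% of counts in injured 1, 2, 4 and 7, against 4.52%, 4.19%, 3.68% and 4.81% in uninjured 1, 3, 4 and 5. The groups overlap, with injured 1 level with uninjured 1 and injured 2 level with uninjured 5. The means were 5.05% ± 0.472 in the injured-father group and 4.30% ± 0.486 in the uninjured-father group (SD, n = 4 each), a difference of 0.751 percentage points that lay between 0.543 and 0.928 when any 1 library was left out. The 60S genes alone took 2.73% ± 0.267 with injured fathers and 2.31% ± 0.304 with uninjured fathers, and the 40S genes 2.06% ± 0.190 and 1.75% ± 0.201 in the same order. In bulk tissue, a change in RNA per cell and a change in the mix of cells cannot be told apart.

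**Figure D2:**
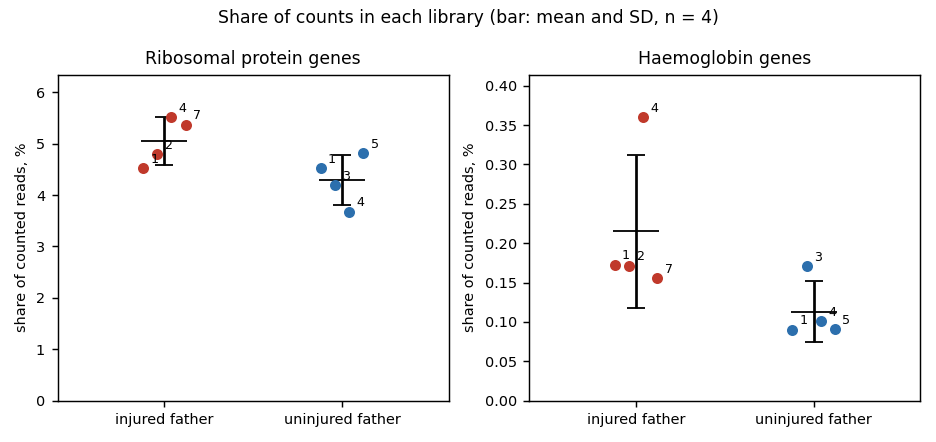
Share of counted reads, in percent, taken by the ribosomal protein genes (left) and by haemoglobin genes (right) in each numbered library, with the mean and SD of 4 libraries per group. The member shares overlap between groups; the haemoglobin share of injured 4, 0.360%, stands above the other 7.

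No single member passed the test. With edgeR's quasi-likelihood test, 0 of 82 members had an adjusted p under 0.05, where 0% of all 13604 genes did, and the smallest adjusted p over all genes was 0.313. An unadjusted p under 0.05 was found in 0 members and in 7.14% of all genes, and in 0 members and 3.67% of all genes with the higher level in the injured-father group. DESeq2 and limma voom also called 0 members, and each gave 0 members at an unadjusted p under 0.05. The groups overlapped in all 82 members, while they did not overlap in 4.16% of all genes, with the injured-father group above in 2.58% and below in 1.58%.

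The fitted log2 folds of the members, injured over uninjured fathers, were small and mostly of 1 sign. Of 82, 79 were positive (96.3%), where 48.6% of all genes were. Their median was 0.19 and their range -0.33 to 0.35, against a median of -0.01 over all genes. The median was 0.20 over the 40 tested 60S genes, 0.22 over the 4 stalk genes and 0.19 over the 36 tested 40S genes. The members vary together over the libraries, so these counts do not stand for 82 separate observations. The 3 negative log2 folds were those of RPL7L1 (-0.33), RPLP0 (-0.29) and RPS2 (-0.01).

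**Figure D3:**
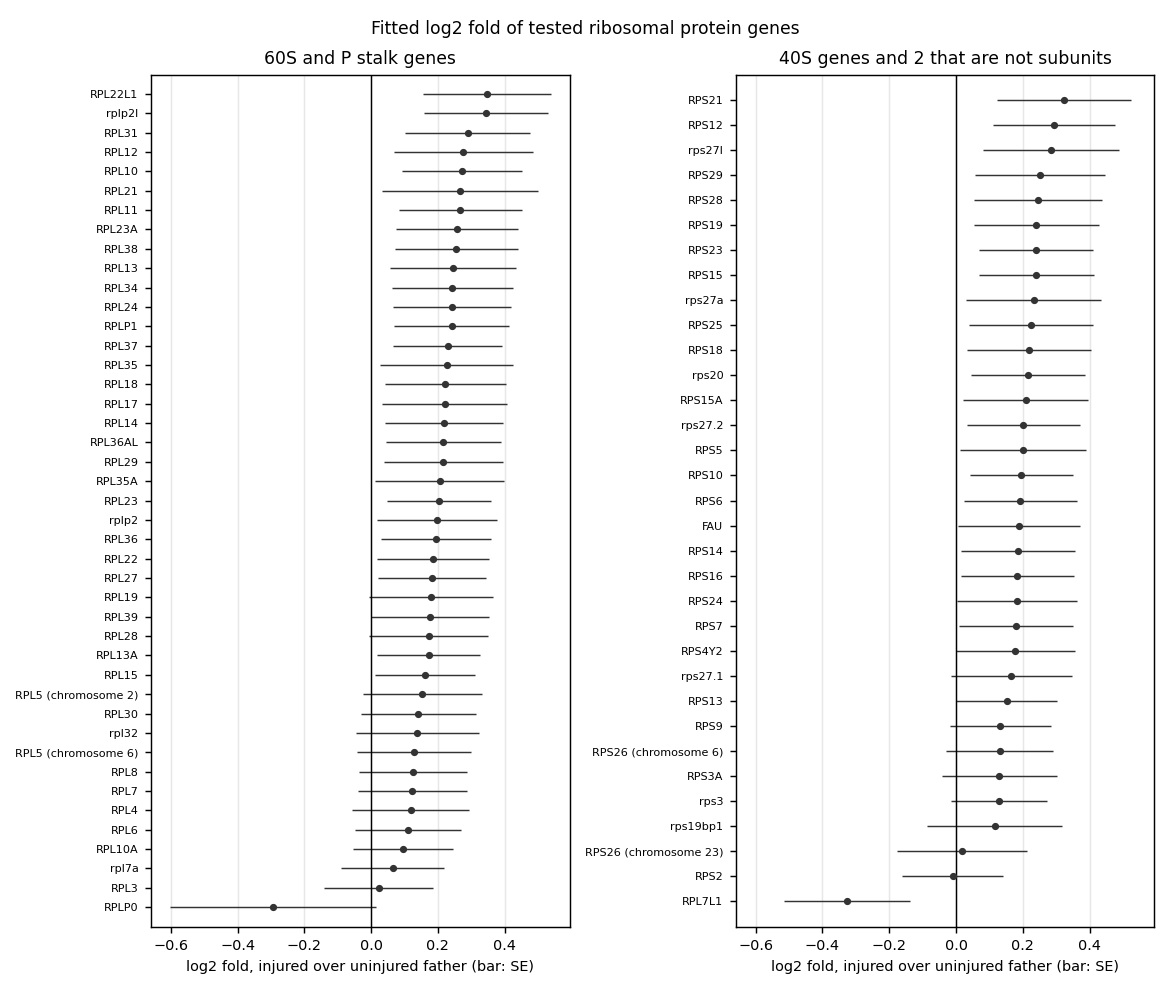
Fitted log2 fold of 76 of the 82 tested members, injured over uninjured fathers, with its standard error as a bar, for 60S and stalk genes (left) and for 40S genes and the 2 that are not subunits (right). Apart from RPLP0, RPS2 and RPL7L1 the points lie above 0, none with an unadjusted p under 0.05.

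The size of these log2 folds leaned on 2 libraries, and their sign did so less. Injured 4 was the highest of the 8 libraries in 72 members, uninjured 4 was the lowest in 71, and both held in 69. Without injured 4 the median log2 fold of the members was 0.06 with 70 of 82 positive. Without uninjured 4 the median was 0.13 and 79 of 82 were positive, as many as with all 8 libraries. Injured 4 also had the highest haemoglobin share. With the haemoglobin share as a covariate the median log2 fold of the members was 0.02 and 50 of 82 were positive. Erythrocyte markers had positive log2 folds in 6 of 6 tested genes (median 0.86), with 3 past an unadjusted p of 0.05, and summed to 577 to 1834 CPM with injured fathers and 405 to 734 CPM with uninjured fathers; hbae5 was at 0 in every library. Leukocyte markers summed to 248 to 487 CPM with injured fathers and 204 to 301 CPM with uninjured fathers, with 5 of 6 tested positive. Positive were 1 of 5 tested cardiomyocyte markers, 0 of 2 atrial, 1 of 4 smooth muscle, 2 of 3 endothelial and 2 of 5 fibroblast. The median Pearson correlation (r) with the members' mean was 0.45 for erythrocyte, 0.04 for leukocyte and 0.47 for cardiomyocyte markers. It was 0.42 for endothelial, -0.05 for atrial, -0.15 for smooth muscle and -0.18 for fibroblast markers. The haemoglobin covariate cannot separate blood content from the father's group or from injured 4. Its group means differed, 0.215% for the injured-father group against 0.113%, and injured 4 alone reached 0.360%. The part of blood cells in the members' values was therefore not tested.

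Among proteins of the 60S subunit, RPL11, which with RPL5 and 5S ribosomal RNA forms a particle that binds MDM2 in mammals (ENSDARG00000043509, chromosome 19, 43780970 to 43786940), had 609, 653, 991 and 788 CPM in injured 1, 2, 4 and 7, against 638, 603, 523 and 766 CPM in uninjured 1, 3, 4 and 5. Injured 4 was highest and uninjured 4 lowest, and the other 6 libraries interleaved. Its means were 760 ± 172 CPM with injured fathers and 632 ± 101 CPM with uninjured fathers (SD, n = 4 each), and its log2 fold was 0.27 (SE 0.18, adjusted p = 0.767, edgeR).

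RPL5 has a row on chromosome 2 and another on chromosome 6. The first had 608, 647, 939 and 672 CPM in injured 1, 2, 4 and 7, against 603, 630, 546 and 798 CPM in uninjured 1, 3, 4 and 5. The second had 397, 423, 565 and 445 CPM, against 432, 403, 336 and 503 CPM in the same order. Both were highest in injured 4 and lowest in uninjured 4, with log2 folds of 0.15 and 0.13.

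RPL4 lines the tunnel through which the new protein leaves (chromosome 18, 19451070 to 19456269). Among the genes of the symbol rule it held the highest mean per gene, 1738 CPM. It had 1501, 1826, 2138 and 1770 CPM in injured 1, 2, 4 and 7, against 1677, 1570, 1282 and 2142 CPM in uninjured 1, 3, 4 and 5. Here uninjured 5 and injured 4 shared the top, and the log2 fold was 0.12. RPL12, a protein at the base of the stalk, had 529, 527, 793 and 672 CPM with injured fathers, against 516, 495, 372 and 702 CPM with uninjured fathers. RPL21 had 281, 196, 464 and 364 CPM with injured fathers, against 255, 252, 255 and 324 CPM with uninjured fathers. RPL12 and RPL21 varied 2.13-fold and 2.36-fold between their highest and lowest library, where the median of the members was 1.71-fold. Smaller p-values among the 60S genes belonged to RPL31 (log2 fold 0.29, adjusted p = 0.752) and RPL10, which joins the subunit late in the cytoplasm (0.27, adjusted p = 0.756), both from edgeR.

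The P stalk is built on RPLP0, which carries pairs of the small acidic proteins P1 and P2. RPLP1 had 725, 824, 1161 and 997 CPM in injured 1, 2, 4 and 7, against 801, 732, 681 and 924 CPM in uninjured 1, 3, 4 and 5. The gene rplp2 (chromosome 6, 49508805 to 49510553) had 480, 480, 735 and 688 CPM with injured fathers, against 508, 487, 471 and 616 CPM with uninjured fathers. In both genes injured 4 and 7 were the 2 highest and uninjured 4 the lowest. A second P2 gene, rplp2l (ENSDARG00000011201, chromosome 7, 12959846 to 12968701), had 164, 165, 258 and 216 CPM with injured fathers, against 155, 164, 132 and 181 CPM with uninjured fathers. It had the smallest p of the family, with a log2 fold of 0.34 (SE 0.19, unadjusted p = 0.0888, adjusted p = 0.726, edgeR).

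RPLP0 itself (ENSDARG00000051783, chromosome 5, 1950660 to 1963498) ran the other way. It had 982, 640, 544 and 1036 CPM in injured 1, 2, 4 and 7, against 1006, 748, 1587 and 587 CPM in uninjured 1, 3, 4 and 5. Uninjured 4 was its highest library and injured 4 its lowest, the reverse of most members. The means were 801 ± 245 CPM with injured fathers and 982 ± 439 CPM with uninjured fathers (SD, n = 4 each). Its log2 fold was -0.29 (SE 0.31, adjusted p = 0.836, edgeR), and 0.04 without uninjured 4. It varied 2.91-fold between its highest and lowest library, the widest range among the tested members.

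Among proteins of the 40S subunit, RPS7 had 968, 1035, 1445 and 1100 CPM in injured 1, 2, 4 and 7, against 1003, 957, 828 and 1227 CPM in uninjured 1, 3, 4 and 5. RPS6, the substrate of the S6 kinases (chromosome 1, 45043767 to 45049603), had 923, 1065, 1371 and 1113 CPM with injured fathers, against 988, 916, 803 and 1207 CPM with uninjured fathers. Both were highest in injured 4 and lowest in uninjured 4, with uninjured 5 above injured 1, 2 and 7. The log2 folds were 0.18 (SE 0.17) for RPS7 and 0.19 (SE 0.17) for RPS6.

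The highest log2 fold in the 40S group was that of RPS21, at 290, 326, 523 and 409 CPM in injured 1, 2, 4 and 7, against 303, 290, 264 and 381 CPM in uninjured 1, 3, 4 and 5. Its log2 fold was 0.32 (SE 0.20, adjusted p = 0.745, edgeR). RPS12 had 207, 221, 326 and 224 CPM with injured fathers, against 205, 188, 171 and 235 CPM with uninjured fathers, so that only injured 4 lay above uninjured 5. FAU, whose product is a ubiquitin-like protein fused to RPS30, had 358, 408, 596 and 459 CPM with injured fathers, against 389, 390, 342 and 477 CPM with uninjured fathers. The gene rps27a, which encodes ubiquitin fused to a 40S protein, had 308, 368, 514 and 426 CPM with injured fathers, against 327, 332, 267 and 450 CPM with uninjured fathers. FAU and rps27a had log2 folds of 0.19 and 0.23. The gene rps19bp1 had 14.5, 16.6, 21.97 and 21.3 CPM with injured fathers, against 17.0, 17.2, 14.1 and 20.4 CPM with uninjured fathers; its log2 fold was 0.12.

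Several ribosomal proteins have a second gene copy in these data, and the level of the copy relative to its partner was compared in 9 pairs. The pairs include RPL7 with RPL7L1, a related gene that is not known to encode a subunit of the ribosome. RPL22L1 is the copy of RPL22, and in mouse RPL22 protein limits its mRNA. RPL22 (ENSDARG00000070437, chromosome 11, 29650011 to 29658396) had 378, 388, 579 and 440 CPM in injured 1, 2, 4 and 7, against 379, 395, 357 and 440 CPM in uninjured 1, 3, 4 and 5. RPL22L1 (ENSDARG00000010244, chromosome 24, 26475182 to 26479841) had 49.7, 40.6, 70.6 and 58.7 CPM with injured fathers, against 44.4, 41.6, 39.0 and 48.0 CPM with uninjured fathers. Both genes were highest in injured 4 and lowest in uninjured 4. RPL22L1 had the largest log2 fold of the family, 0.35 (SE 0.19, unadjusted p = 0.0961, adjusted p = 0.733, edgeR), and RPL22 had 0.18 (SE 0.17). Per length the copies stood at 62.4 CPM per kilobase for RPL22L1 and 114 for RPL22. The ratio of RPL22 to RPL22L1 counts was 8.21 ± 0.957 in the injured-father group and 9.08 ± 0.399 in the uninjured-father group (SD, n = 4 each; exact permutation p = 0.2, 0.6 adjusted over the 9 pairs).

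Of the 9 pairs, RPL7 with RPL7L1 alone had a ratio whose groups did not overlap. Its exact permutation p adjusted over the 9 pairs was 0.257, equal to that of rplp2 with rplp2l. RPL7 had 883, 972, 1335 and 1035 CPM in injured 1, 2, 4 and 7, against 972, 905, 860 and 1142 CPM in uninjured 1, 3, 4 and 5. RPL7L1 (ENSDARG00000042864, chromosome 20, 36675083 to 36679233) had 14.6, 14.6, 20.3 and 18.2 CPM with injured fathers, against 21.5, 19.0, 19.3 and 25.3 CPM with uninjured fathers, from 133 to 324 counts per library. On its own RPL7L1 did not pass the test, with means of 16.9 ± 2.83 CPM with injured fathers and 21.3 ± 2.89 CPM with uninjured fathers, and its log2 fold was -0.33 (SE 0.19, adjusted p = 0.738, edgeR).

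The ratio of RPL7 to RPL7L1 counts was 60.5, 66.7, 65.8 and 56.8 in injured 1, 2, 4 and 7, against 45.2, 47.6, 44.6 and 45.2 in uninjured 1, 3, 4 and 5. The groups did not overlap. The means were 62.4 ± 4.65 in the injured-father group and 45.6 ± 1.32 in the uninjured-father group (SD, n = 4 each), a log2 difference of 0.45 that lay between 0.42 and 0.49 when any 1 library was left out. The two-sided exact permutation p was 0.0286, the smallest that 70 assignments allow, and 0.257 after adjustment over the 9 pairs. The ratio was formed after the values had been seen, and so was the comparison with the other members that follows. RPL7 itself followed the other members (r = 0.97), so that comparison is close to the ratio and gives no separate support. Set against the mean of the other members in each library, RPL7L1 was the only 1 of 82 members whose groups did not overlap, where 4.32% of the 13522 other genes did not. It lay below with injured fathers, as did 3.45% of those genes. Its log2 level relative to the other members was -4.81 ± 0.0501 in the injured-father group and -4.30 ± 0.0588 in the uninjured-father group (SD, n = 4 each).

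**Figure D4:**
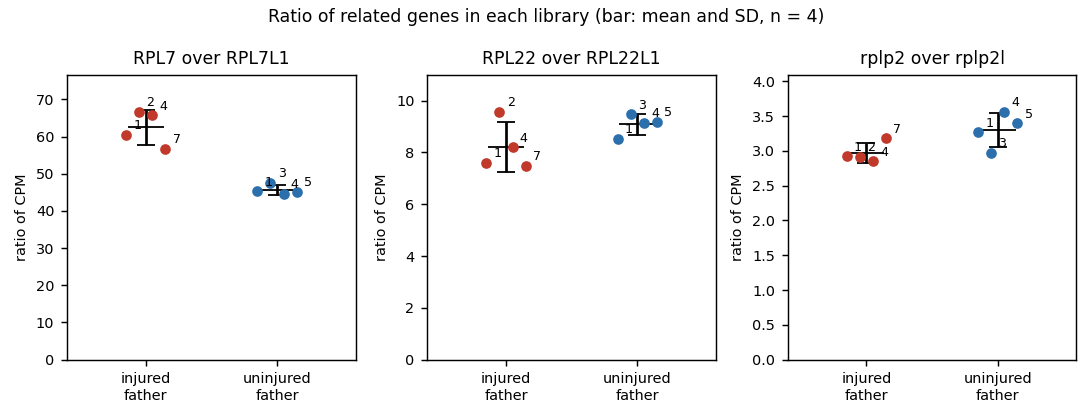
Ratio of counts of a gene to its copy or related gene in each numbered library, with the mean and SD of 4 libraries per group. The pairs are RPL7 over RPL7L1, rplp2 over rplp2l and RPL22 over RPL22L1, each axis from 0. In the RPL7 pair the injured-father libraries lie at 56.8 to 66.7 and the uninjured-father libraries at 44.6 to 47.6; in the other pairs the groups overlap.

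The ratio of rplp2 to rplp2l was 2.97 ± 0.144 in the injured-father group and 3.30 ± 0.249 in the uninjured-father group (SD, n = 4 each; exact permutation p = 0.0571, 0.257 adjusted over the 9 pairs). The pairs RPL5, RPS26 and rps27.1 with rps27.2 or rps27l had p-values of 0.371 or more. The copies rps27.1 and rps27.2 were near equal, with a ratio of 0.966 ± 0.0257 in the injured-father group and 0.986 ± 0.0722 in the uninjured-father group (SD, n = 4 each). The gene rps27l, whose human counterpart is induced by p53, had 19.4, 23.1, 34.6 and 26.1 CPM with injured fathers, against 21.4, 24.2, 20.4 and 18.9 CPM with uninjured fathers (log2 fold 0.28). Reads shared by near-identical copies were not counted, so levels of single copies are uncertain.

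Over the 8 libraries the members moved together. The median Pearson r of log2 CPM over the 3321 pairs of tested members was 0.93, against -0.002 over all 92527606 pairs of tested genes. An r above 0.8 was found in 74.8% of member pairs and in 2.74% of all pairs. After removing the group means the median was 0.92, so the relation was not that of the 2 groups alone. It was 0.84 without injured 4 and uninjured 4 together, an alternative chosen after seeing the data. The first principal component held 85.2% of the members' variance. The points share library, depth and scaling, and the r values are given as a description. The members all lay above the median level of the tested genes, and no genes of like level were compared.

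Of the 82 tested members, 68 had an r above 0.9 with the mean of the others, RPL11 among them (r = 0.996). Under 0.5 were 6 members, among them RPLP0 (r = -0.68), RPS2 (-0.41), RPS26 on chromosome 23 (0.03), RPL3 (0.08) and RPL7L1 (0.37). Together the 6 held 9.63% of the members' counts. Without them the median log2 fold of the rest was 0.20.

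**Figure D5:**
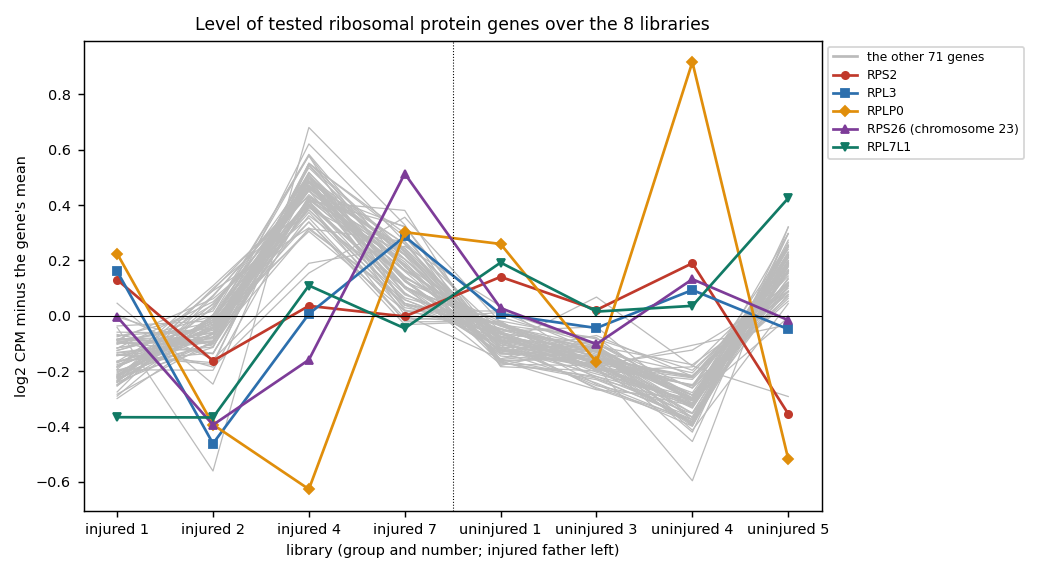
Log2 CPM of 76 tested members in each library relative to the member's own mean over 8 libraries, injured-father libraries on the left; lines join the points of a gene and carry no order. Most of the 71 members drawn in grey are highest in injured 4 and lowest in uninjured 4, while the 5 named ones, with an r under 0.5 to the rest, do not share that course.

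RPS2, near the channel where mRNA enters the 40S subunit (chromosome 3, 18398876 to 18403179), had 1518, 1239, 1421 and 1384 CPM in injured 1, 2, 4 and 7, against 1529, 1407, 1582 and 1085 CPM in uninjured 1, 3, 4 and 5. Like RPLP0 it was highest in uninjured 4, and its r with RPLP0 was 0.70. RPL3, close to the peptidyl transferase centre (chromosome 3, 29867213 to 29871364), had 1760, 1143, 1582 and 1921 CPM with injured fathers, against 1581, 1527, 1679 and 1522 CPM with uninjured fathers. RPL3 was highest in injured 7 and lowest in injured 2, and RPS26 on chromosome 23 had the same 2 extremes. Injured 7 also had the most counted reads of the libraries and injured 2 the fewest, and the part of depth was not tested. RPS26 on chromosome 23 had 145, 110, 130 and 207 CPM with injured fathers, against 148, 135, 159 and 144 CPM with uninjured fathers. Its r with RPL3 was 0.87.

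The other copy of RPS26 lay nearer the family. RPS26 on chromosome 6 had 250, 234, 296 and 341 CPM in injured 1, 2, 4 and 7, against 262, 235, 244 and 283 CPM in uninjured 1, 3, 4 and 5, with an r of 0.75. RPL7L1 differed in another way. Its r was 0.37 over the 8 libraries and 0.97 after the group means were removed, so within each group it followed the family.

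Genes outside the family that followed RPLP0, chosen after their values were seen, included akt2 and appa (r = 0.99 each), MYOM2 of the sarcomere M line and the ribosome-binding SERBP1 (0.98 each). The elongation factor genes eef2b (0.98) and eef1a1l1 (0.89) and the poly(A)-binding protein gene pabpc1b (0.92) did so too. The last 3, looked up by name, encode proteins of translation whose vertebrate mRNAs also carry a TOP stretch. They do not stand for TOP mRNAs as a group. Over the 24 tested TOP mRNAs other than those of ribosomal proteins, the median r with the members' mean was 0.62. The same median was 0.71 for mitochondrial ribosomal proteins, so a value of that size was not particular to TOP mRNAs. It was 0.45 for elongation and termination factors, 0.40 for initiation factors and 0.35 for factors of ribosome assembly. RPLP0 had a negative r with the members' mean.

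Further proteins of the ribosome that the symbol rule misses followed the family mean. One was si:dkey-151g10.6 (r = 0.989), for which RefSeq's GRCz12tu gene table lists the synonym rpl41. RPSA2 (chromosome 6, r = 0.984) had 1719, 1719, 2309 and 1919 CPM in injured 1, 2, 4 and 7, against 1814, 1650, 1552 and 1994 CPM in uninjured 1, 3, 4 and 5. The 10 most alike genes also held the proteasome subunit gene PSMA4 (0.980) and the splicing factor gene BCAS2 (0.975). RACK1, the 40S scaffold protein (r = 0.91), had 1247, 1358, 1806 and 1282 CPM with injured fathers, against 1286, 1234, 1101 and 1496 CPM with uninjured fathers. Log2 folds were 0.13 for RPSA2 and 0.15 for RACK1.

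The other genes of ribosome production and translation are given by list. Over all tested genes, 48.6% were positive and 7.14% had an unadjusted p under 0.05 in either direction (edgeR). Mitochondrial ribosomal proteins, which belong to a separate ribosome, were positive in 50 of 74 tested genes with a median log2 fold of 0.05, and 0 had an unadjusted p under 0.05. Their median r with the members' mean was 0.71. Factors of ribosome assembly and the nucleolus were positive in 42 of 79 (median 0.02). At that p 1 was higher and 1 lower, and 0 were called after adjustment. The higher one was noc4l at 12.2 ± 0.843 CPM with injured fathers and 8.13 ± 2.98 CPM with uninjured fathers, and the lower one NOC2L at 2.72 ± 0.810 and 4.78 ± 0.590 CPM in the same order (SD, n = 4 each); both encode nucleolar factors. RNA polymerase I subunits and factors, which transcribe ribosomal RNA, were positive in 8 of 13 (median 0.16), 0 of them at an unadjusted p under 0.05.

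Initiation factors were positive in 26 of 64 (median -0.06), and elongation and termination factors in 7 of 16 (median -0.07). Eukaryotic elongation factor 2 kinase, EEF2K, which slows elongation, was at 175 ± 35.8 CPM with injured fathers and 230 ± 28.1 CPM with uninjured fathers (SD, n = 4 each; unadjusted p = 0.0461, adjusted p = 0.697, edgeR). EEF1A1 on chromosome 13 had 45.7, 1.65, 2.73 and 0.932 CPM with injured fathers, against 1.24, 1.119, 1.51 and 1.25 CPM with uninjured fathers, so its log2 fold of 3.30 rested on injured 1. Other TOP mRNAs than those of ribosomal proteins were positive in 15 of 24 (median 0.02), with 0 at an unadjusted p under 0.05; pabpc1b had 266, 203, 143 and 239 CPM with injured fathers, against 263, 231, 668 and 185 CPM with uninjured fathers.

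Genes of mTOR signalling and of TOP mRNA control were mostly negative, 25 of 29 tested, with a median log2 fold of -0.21. Their median r with the members' mean was -0.21. At an unadjusted p under 0.05, 2 were lower, where 7.14% of all genes had such a p, and adjustment left 0. In this and the other lists genes may vary together, so counts of positive or negative genes do not stand for separate observations. The medians of the lists were not computed with libraries left out or with the haemoglobin covariate. LARP1, which binds TOP mRNAs, was at 2.95, 5.81, 2.80 and 4.78 CPM in injured 1, 2, 4 and 7, against 7.07, 4.47, 8.85 and 7.17 CPM in uninjured 1, 3, 4 and 5 (log2 fold -0.76, SE 0.30, unadjusted p = 0.0284, adjusted p = 0.642, edgeR). Uninjured 3 lay within the injured-father range, and the other 3 uninjured-father libraries above it. The related larp4aa was at 4.75 ± 1.90 CPM with injured fathers and 8.84 ± 4.18 CPM with uninjured fathers (log2 fold -0.90), with 14.8 CPM in uninjured 4.

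Genes of the p53 response, which can follow a disturbance of ribosome assembly, were positive in 12 of 16 (median 0.28). At that unadjusted p 3 were higher and 1 lower, where 7.14% of all genes had such a p. After adjustment 0 were called. The gene bbc3, a p53 target that promotes cell death, had 6.09, 10.5, 4.39 and 5.88 CPM in injured 1, 2, 4 and 7, against 2.697, 4.63, 1.87 and 1.64 CPM in uninjured 1, 3, 4 and 5 (log2 fold 1.30, SE 0.37, adjusted p = 0.528, edgeR). Injured 4 lay below uninjured 3, and the other libraries kept apart by group. SESN1, a p53 target that restrains mTOR, was at 108 ± 27.4 CPM with injured fathers and 194 ± 67.8 CPM with uninjured fathers (log2 fold -0.84, SE 0.27, adjusted p = 0.575, edgeR). MDM2 itself, the partner of RPL5 and RPL11, is listed as mdm2 and was at 9.84 ± 0.899 CPM with injured fathers and 7.96 ± 1.43 CPM with uninjured fathers (log2 fold 0.31, unadjusted p = 0.167), a gene chosen after its values were seen.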

How the data were processed

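The authors deposited raw counts of reads per gene, which they did not normalise. Per the file headers, reads were counted with featureCounts 2.0.3 against Ensembl GRCz11 release 111 with strand option 0, leaving out reads with several map positions or several overlapping genes. According to the submitters' processing notes, FastQC 0.11.9, MultiQC 1.12, STAR 2.7.10a, R 4.4.0 and DESeq2 1.44.0 were used. Per the labels' protocols, 1 ng of RNA went into the Ovation Single Cell kit, amplified in 2 rounds and sequenced as 60-base single reads.

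Symbols came from a table of gene names, which matched 29201 of 32520 genes (89.8%). RPL5 and RPS26 stand for 2 genes each and are told apart by chromosome. Counts were tested with edgeR 4.0.16 in R 4.3.3 (TMM factors, filterByExpr with minimum count 10, robust quasi-likelihood, Benjamini-Hochberg at 0.05 over 13604 genes). The fit was also run on simulated counts. Their set folds were larger than those of the members, so that run does not show how well folds as small as theirs are found. The standard error (SE) is the size of the log2 fold divided by the root of F. CPM are counts scaled to a TMM-adjusted total of 1e+06; correlations used log2 CPM with a prior count of 2. Copy ratios were tested with two-sided exact permutation over 70 assignments. Alternatives changed the scaling, filter, tool, covariates, replicate block and libraries included.

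Named members were those of smallest p, of highest and lowest level, the stalk genes, a set of well-known members, copies, and the untested; beyond the family, the 3 of smallest p per list and the 10 most alike genes, of which the text prints some. RPS2, RPS9, RPL4, RPL12, RPL21 and RPSA2 were named after their values were seen. The members and lists were chosen with earlier results of these data known. Some genes are not reported here; they stay in all counts and tests.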

Additional observations from a re-analysis of the deposited data

Results flagged for a closer look

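With 4 libraries per group, a library was set apart where its gap to the nearest other, over the group's range, exceeded Dixon's 95% critical value; 8 of 142 groups of named genes and shares did so, and chance gives about 1 in 20. Among all tested members, 6 of 164 groups did. RPS12 had 326 CPM in injured 4, against 207 to 224 CPM in the other injured-father libraries. RPL36AL had 485 CPM in uninjured 5, against 357 to 376 CPM in the other uninjured-father libraries, and RPL21 had 324 CPM in uninjured 5, against 252 to 255 CPM.

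Outside the family, EEF1A1 on chromosome 13 had 45.7 CPM in injured 1, against 0.932 to 2.73 CPM in the other libraries of that group. The gene pabpc1b had 668 CPM in uninjured 4, against 185 to 263 CPM, and gas5 had 6.32 CPM in uninjured 5, against 3.43 to 3.82 CPM. The haemoglobin share was 0.360% in injured 4, against 0.155% to 0.173% in the other injured-father libraries, and 0.171% in uninjured 3, against 0.0900% to 0.101% in the other uninjured-father libraries.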

How the results depend on the processing

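In every setting tried 0 members were called. Over all genes, DESeq2 called 63 (46 higher, 17 lower) and the fit with the replicate block 20 (11 higher, 9 lower), against 0 in the others. The labels' numbers 1 and 4 occur in both groups. Deviations from the group means had an r of 0.12 between the libraries numbered 1 and -0.28 between those numbered 4. Libraries of unlike number were not compared, so these values cannot show whether a number marks a shared batch. The block leaves few degrees of freedom, and its fold between groups comes only from the libraries numbered 1 and 4. Injured 4 and uninjured 4, the extremes for most members, are among them. With the block the members' median log2 fold was 0.33. With library sizes alone the median was 0.26 (all genes 0.07). In that setting 9 members had an unadjusted p under 0.05 (edgeR), all higher, and without uninjured 5 there were 3. The share of all genes at that p was not counted in either setting, so these counts cannot be read as particular to the members. Positive members numbered 50 with the haemoglobin share as a covariate, and 70 to 80 with 1 library left out, where the median lay between 0.06 and 0.28. An offset for gene length gave a members' median of 0.14 (all genes -0.00025) with 75 positive. Without mitochondrial and haemoglobin counts the total is smaller, and the mean shares were 6.49% with injured and 5.47% with uninjured fathers. Their difference of 1.02 points is on that smaller total and is not on the same base as 0.751. The median pairwise r was 0.84 without both libraries numbered 4, and 0.88 to 0.95 with 1 left out. The cause of these shifts was not tested.

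Of 69 named genes, 47 kept their sign in all alternatives. With the haemoglobin covariate the sign turned in eif4ebp3 (-0.037), EIF4G1 (0.12), ENSDARG00000109678 (-0.081), FAU (-0.053), hnrnpa1a (0.097), MRPL2 (0.020), RACK1 (-0.060), RPL21 (-0.045), RPL22 (-0.078), RPL39 (-0.064), RPL5 on chromosome 2 (-0.10) and 6 (-0.033), RPL6 (-0.013), RPL7 (-0.054), RPLP0 (0.17), rps19bp1 (-0.0025), rps27l (-0.10) and RPS7 (-0.012). With the block it turned in MRPS7 (0.11) and RPS26 on chromosome 23 (-0.16), with a length offset in RPL3 (-0.021) and RPS26 (-0.026), without the filter in RPL3 (-0.012) and RPS26 (-0.016), with library sizes alone in RPS2 (0.064), and with voom in RPS2 (0.0016) and RPS26 (-0.013). With 1 library left out, log2 folds that changed sign ranged from -0.55 to 0.0027 for MRPL2, -0.078 to 0.15 for RPL3, -0.0084 to 0.27 for RPL5 on chromosome 2, -0.014 to 0.21 for RPL7, -0.47 to 0.036 for RPLP0, -0.12 to 0.052 for RPS2 and -0.19 to 0.13 for RPS26.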
